A study of Mus musculus with 16 samples.

Results

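Acod1, Cs, Aco1, Idh1, Idh2, Idh3a, Ogdh, Slc25a1 and Acly were followed in bone marrow-derived macrophages (BMDMs). They encode the enzyme that makes itaconate, enzymes that make citrate or act on it or its later products, and a citrate carrier. The 9 genes were chosen by symbol for their place in this pathway. They are 9 of the 55487 genes in the count table, and all 9 were among the 12372 genes that passed the filter on low counts.

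The citrate cycle runs in mitochondria, where citrate synthase (Cs) joins acetyl-CoA to oxaloacetate and isocitrate and 2-oxoglutarate dehydrogenases (with subunits such as Idh3a and Ogdh) oxidise the products of citrate. In activated macrophages the enzyme aconitate decarboxylase (Acod1) turns the intermediate cis-aconitate into itaconate, a metabolite with antibacterial and regulatory effects that also inhibits succinate dehydrogenase. Citrate can also leave mitochondria through the carrier Slc25a1, after which ATP citrate lyase (Acly) splits it to give cytosolic acetyl-CoA for lipid synthesis.

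BMDMs are differentiated in culture from bone marrow cells, here of WT Balb/c mice of 8 weeks. 4T1 is a mouse mammary tumor cell line, and its conditioned media (CM) carry the soluble factors it releases. Ruxolitinib (Rux) is an inhibitor of JAK1 and JAK2, the kinases that activate STAT factors, whereas IKK-16 blocks the IKK kinases upstream of NF-κB. The 16 samples were 2 of plain DMEM, 3 of DMEM with Rux, 3 of CM, 3 of CM with 0.5 μM Rux and a label of 4 h, 2 of CM with 0.5 μM Rux and a label of 2 h, and 3 of CM with 0.5 μM Rux and 0.8 μM IKK-16. The dose of Rux in DMEM is not given in the labels, and what the 2 h refers to is not stated. The counts on genes summed to between 18449388 and 46215853 fragments per sample, and the lowest count of any of the 9 genes in any sample was 363. Levels are given as CPM, the count of a gene as a part of all counts of its sample, scaled by relative log expression (RLE).

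The labelled cell type was checked against marker genes. All 8 macrophage markers were above 1 CPM in every sample, and their summed level lay between 40148 and 57183 CPM with Lyz2 as the gene of the highest mean CPM over the 16 samples (without regard to length, as for the other markers). The summed levels of 7 neutrophil markers (highest CPM in Camp, Ly6g at 0), 7 T and NK cell markers (Klrb1c, with Cd3g, Cd8a, Nkg7 and Ncr1 at 0), 7 epithelial markers (Krt18, with Krt5 and Krt14 at 0) and 5 B cell markers (Cd79b, Pax5 at 0) were each below 1.5 CPM in every sample. In CM the highest epithelial marker was Cdh1, at 0.618 CPM against 0.2003 CPM for Krt18. The 5 fibroblast markers summed to between 5.74 and 20.9 CPM, with the highest CPM in Col1a2. The 5 dendritic cell markers summed to between 0.785 and 2.36 CPM in the other groups and to 8.59 and 12.7 CPM in the samples labelled 2 h, with Zbtb46, a transcription factor of classical dendritic cells, as the gene of the highest CPM. Nearly all of the 2 h sums was Zbtb46 (7.95 and 12.3 CPM), while Flt3 was at 0 and Xcr1 and Clec9a at 0.0138 and 0.0276 CPM there, the lowest or equal lowest of the 6 groups. Siglech had its highest group mean there, 0.481 CPM. In such bulk samples fewer cells of a type and less RNA per cell cannot be told apart. Nothing in the labels says that replicates came from separate animals or cultures, so the p-values measure the spread between these samples, which may be technical.

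Acod1 and Idh1 showed the largest differences of the 9 genes, in opposite directions, and the 250 bases before their annotated start sites are shown for the sequence context of this contrast. Acod1 (ENSMUSG00000022126) lies on the plus strand at chr14:103046977-103056573 of GRCm38 and has 5 merged exons, and Idh1 (ENSMUSG00000025950) lies on the minus strand at chr1:65158616-65186500 and has 13. The printed upstream sequences are chr14:103046762-103047011 for Acod1 and chr1:65186480-65186729 for Idh1, from RefSeq on GRCm38.p6, in the direction of the gene and 5′ to 3′. Of the 2 start sites given for Idh1, the one farther upstream was used. Both RefSeq start sites lie inside the genes as given by these positions, so the last bases of each printed sequence are within the annotated gene. Capitals mark a TATA box (TATAAA) and CCAAT boxes (CCAAT, or ATTGG where it lies on the other strand).
Acod1: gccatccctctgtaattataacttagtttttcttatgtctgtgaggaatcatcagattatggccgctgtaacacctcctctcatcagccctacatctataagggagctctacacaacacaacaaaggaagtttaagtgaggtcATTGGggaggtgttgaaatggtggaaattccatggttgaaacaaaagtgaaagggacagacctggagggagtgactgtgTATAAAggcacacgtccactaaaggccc
Idh1: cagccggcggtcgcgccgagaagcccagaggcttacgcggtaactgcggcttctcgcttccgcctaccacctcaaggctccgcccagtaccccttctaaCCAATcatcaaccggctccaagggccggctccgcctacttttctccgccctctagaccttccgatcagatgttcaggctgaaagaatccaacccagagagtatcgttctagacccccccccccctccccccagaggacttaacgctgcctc
The Acod1 sequence has its TATA box at position -28 from the start site and a CCAAT box at -107, and the Idh1 sequence has a CCAAT box at -151. The GC content was 44.4% for Acod1 and 61.6% for Idh1. Another 3 motifs were searched on both strands, the STAT motif (TTCNNNGAA), an interferon response element core (GAAANNGAA) and the NF-κB consensus, and no letters of the Acod1 or Idh1 windows, which run from 250 bases before to 50 after the start, matched them. Windows were given for 8 of the 9 genes, without Idh3a, and the NF-κB consensus was found in those of Slc25a1 and of 1 start site of Ogdh. Of all 32851 mouse windows, 8.30% hold the STAT motif, 8.56% the interferon core, 4.51% the NF-κB consensus, 13.6% TATAAA and 37.4% CCAAT. The TATA and CCAAT boxes were added after the sequences had been seen.

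DMEM replicate 1 stood apart from DMEM replicate 2 for Acod1 (203 against 43.0 CPM), but not across the transcriptome. Of 9435 genes with a mean above 5 CPM, 0.890% differed more than 2-fold between the DMEM samples, within the 0.307% to 1.44% seen between pairs of replicates in the 6 groups. Acod1 was 1 of 45 such genes that were higher in DMEM replicate 1.

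Tumor CM went with a much higher level of Acod1, moderately higher levels of the citrate cycle genes Cs and Idh3a, and a much lower level of Idh1. The comparison was made to ask how soluble tumor factors change gene expression in macrophages. According to the paper, the tumor cells grew in RPMI with added glutamine and pyruvate, and were starved of serum before CM was collected. CM and DMEM may thus also differ in base medium and nutrients, and no sample had tumor cell medium that was not conditioned. Effects of the medium and of tumor factors cannot be told apart here, and the part of the medium was not tested. A gene was called when the quasi-likelihood test of edgeR gave an adjusted p under 0.05 (Benjamini-Hochberg over all genes tested) and a log2 fold change beyond 0.5. By this rule 3 of the 9 genes were higher and 1 was lower in CM than in DMEM, where 20.9% of all genes tested were called higher and 24.1% lower. The median log2 fold change was 0.11 over the 9 genes and -0.0050 over all genes tested.

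Acod1 stood at 2318, 3413 and 2227 CPM in CM replicates 1 to 3 and at 203 and 43.0 CPM in DMEM replicates 1 and 2. Every CM sample was above both DMEM samples, which themselves lay far apart. The log2 fold change was 4.43 (SE 0.51, adjusted p = 5.6e-06 by edgeR), a 21.5-fold difference. Without DMEM replicate 1 it was 5.94 and without DMEM replicate 2 it was 3.70, and the call held in both cases.

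**Figure D1:**
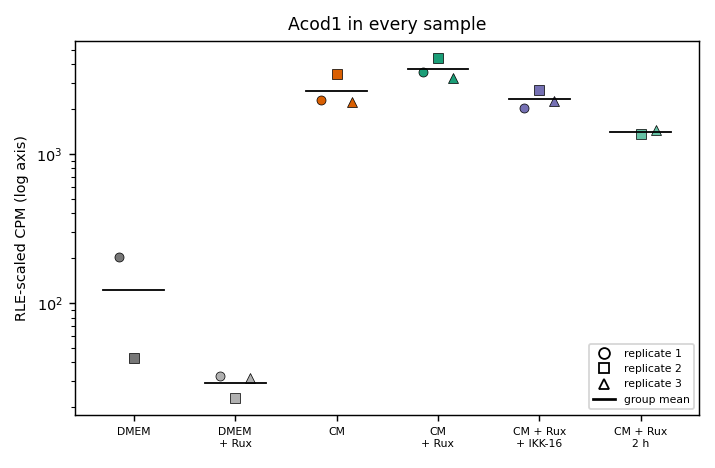
Acod1 level in every sample (RLE-scaled CPM, log axis) by group. Symbols give the replicate number and lines the group means. The samples with CM lie between 1358 and 4419.8 CPM, all above those in DMEM, and DMEM replicate 1 at 203 CPM lies above the other samples without CM.

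Cs, citrate synthase, was at 259, 288 and 267 CPM in CM and at 176 and 173 CPM in DMEM. The groups did not overlap, with a log2 fold change of 0.64 (SE 0.074, adjusted p = 5.6e-06 by edgeR). Cs has a close copy, Csl, with 91.9% identity over 1522 aligned bases, but Csl had at most 6 counts in any sample. Idh3a, the catalytic subunit of the NAD-dependent isocitrate dehydrogenase, was at 43.0, 45.4 and 41.8 CPM in CM and at 33.0 and 27.4 CPM in DMEM. It was higher in every CM sample, by 0.52 on the log2 scale (SE 0.085, adjusted p = 1.2e-04 by edgeR), just past the threshold of 0.5. The call was lost without CM replicate 2 (0.49) or DMEM replicate 2 (0.39), by the size of the change alone.

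Idh1, the cytosolic isocitrate dehydrogenase that makes NADPH and 2-oxoglutarate, was at 48.8, 45.5 and 38.8 CPM in CM and at 347 and 293 CPM in DMEM. All CM samples were far below both DMEM samples, with a log2 fold change of -2.85 (SE 0.18, adjusted p = 2.1e-08 by edgeR), a 7.21-fold lower level.

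The other genes were not called. Slc25a1, the mitochondrial citrate carrier, was at 89.5, 99.0 and 74.7 CPM in CM and at 65.3 and 62.1 CPM in DMEM, without overlap. Its log2 fold change of 0.46 (SE 0.17, adjusted p = 0.026 by edgeR) was below the fold threshold, and it was called when the replicate number was a block in the model (0.54, adjusted p = 2.1e-05 by edgeR) and without CM replicate 3 (0.57, adjusted p = 0.012 by edgeR). It was 0.37 (adjusted p = 0.092 by edgeR) without CM replicate 2 and 0.15 (adjusted p = 0.39 by edgeR) with scaling by total counts. Aco1, the cytosolic aconitase that also serves as an iron regulatory protein, had a log2 fold change of -0.23 (adjusted p = 0.015 by edgeR), also below the fold threshold. Idh2, the mitochondrial NADP-dependent isocitrate dehydrogenase, had -0.30 with an interval of 2 standard errors to either side from -0.69 to 0.097, Ogdh had -0.011 (-0.16 to 0.14) and Acly 0.11 (-0.046 to 0.28).

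Part of this pattern rests on the scaling. Scaling by relative log expression moved the median of all genes in CM against DMEM by 0.31 compared with scaling by total counts alone. With total counts the log2 fold changes were 0.33 for Cs and 0.21 for Idh3a, which were then not called, while Aco1 (-0.54) and Idh2 (-0.61) were called lower. The calls of Acod1 and Idh1 were kept under both scalings. The CM samples also had a higher sum of the macrophage markers, 46273 to 55278 CPM against 42394 and 43908 CPM in DMEM. Cd14 accounts for this, with means of 13561 CPM in CM and 2113 CPM in DMEM, whereas Lyz2 had 31324 and 34154 CPM, and the median log2 fold change of the 8 markers was -0.10. Among them Cd14 (log2 fold change 2.68) and Itgam (0.99) were called higher and Csf1r (-0.61) lower. The B cell marker Cd79b was called lower (-2.95) at a summed level of that list of at most 1.21 CPM in DMEM. The part of these markers in the results was not tested.

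**Figure D2:**
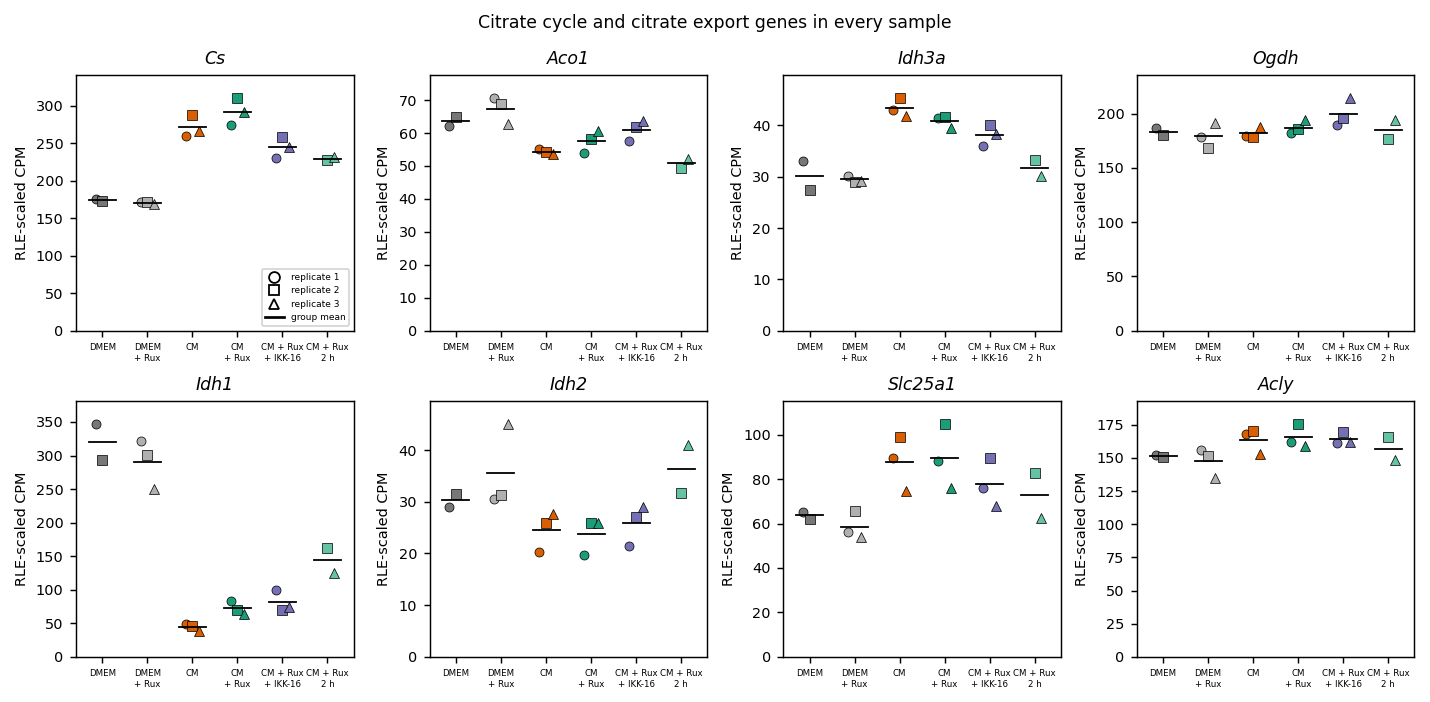
Levels of the other 8 genes in every sample (RLE-scaled CPM, linear axes from 0) by group, with symbols for the replicate number and lines for group means. Cs and Idh3a are higher and Idh1 is lower in CM than in DMEM, and Idh1 in the 2 h samples lies between its levels in DMEM and in CM + Rux.

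Rux added to CM raised Idh1 and no other gene of the 9 passed the test. This comparison asks what JAK inhibition changes in the presence of tumor factors, and 1 of the 9 genes was called higher and 0 lower, against 1.20% and 2.13% of all genes tested. Idh1 was at 83.8, 69.2 and 63.2 CPM in CM + Rux and at 48.8, 45.5 and 38.8 CPM in CM. The groups did not overlap, and within replicate numbers the ratio was 1.72, 1.52 and 1.63. The log2 fold change was 0.70 (SE 0.16, adjusted p = 0.020 by edgeR). The call was lost without CM + Rux replicate 1 (adjusted p = 0.11), CM replicate 2 (0.068) or CM replicate 3 (0.081), with log2 fold changes of 0.58, 0.72 and 0.61 by edgeR. The level of Idh1 in CM + Rux was still well below the 293 to 347 CPM in DMEM.

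Acod1 was at 3556, 4419.8 and 3208 CPM in CM + Rux. These values overlapped those in CM. The log2 fold change of 0.49 (SE 0.37, interval -0.25 to 1.24, adjusted p = 0.64 by edgeR) did not pass the test. The Acod1 value was above that in CM in 3 of 3 replicate numbers (ratios of 1.53, 1.30 and 1.44). The main model takes 1 spread per gene from all 6 groups, and for Acod1 these include DMEM at 203 and 43.0 CPM. In a model of only the groups compared the log2 fold change was 0.49 (SE 0.19, adjusted p = 0.27 by edgeR), also not called. The other 7 genes had log2 fold changes from -0.085 (Idh3a) to 0.11 (Cs). Samples of the same number deviated together in the CM groups, and with the replicate number as a block 745 genes were called in this comparison against 412 without it. Among the macrophage markers, Mertk was called lower here (log2 fold change -1.71), and the part of this in the results was not tested.

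Adding IKK-16 to CM + Rux gave no call by edgeR for any of the 9 genes, where 4.07% of all genes tested were called higher and 3.66% lower. At an unadjusted p under 0.05 there was 1 gene of the 9, Cs, beside 28.8% of all genes tested, and DESeq2 called 0, beside 8.68%. Acod1 was at 2042, 2668 and 2255 CPM with IKK-16, below all 3 samples of CM + Rux. Its log2 fold change was -0.68 (SE 0.37, adjusted p = 0.25 by edgeR) in the model of all groups. In a model of only the groups compared it was -0.67 with an SE of 0.15 and was called (adjusted p = 0.031 by edgeR). Cs was at 230, 259 and 245 CPM with IKK-16, below the 274, 311 and 291 CPM of CM + Rux without overlap. Its log2 fold change of -0.26 (adjusted p = 0.017 by edgeR) was below the fold threshold.

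Against CM alone, CM + Rux + IKK-16 left Idh1 higher, at 99.2, 70.5 and 73.8 CPM. The log2 fold change was 0.87 (SE 0.16, adjusted p = 0.0015 by edgeR), and Idh1 was the 1 gene of the 9 called higher, with 0 lower, against 6.60% and 6.13% of all genes tested. The Idh1 level with IKK-16 overlapped that of CM + Rux. Among the markers, Mertk (log2 fold change -0.95) and Itgam (-0.65) of macrophages were called lower here and Cd79b of B cells higher (1.55), and their part in the results was not tested. Acod1 differed from CM by -0.19 (SE 0.37, adjusted p = 0.75 by edgeR), with overlapping samples, and without CM replicate 2 the sign turned (0.030). The comparisons with CM share its samples, as do those with CM + Rux, so their values are not independent of each other.

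**Figure D3:**
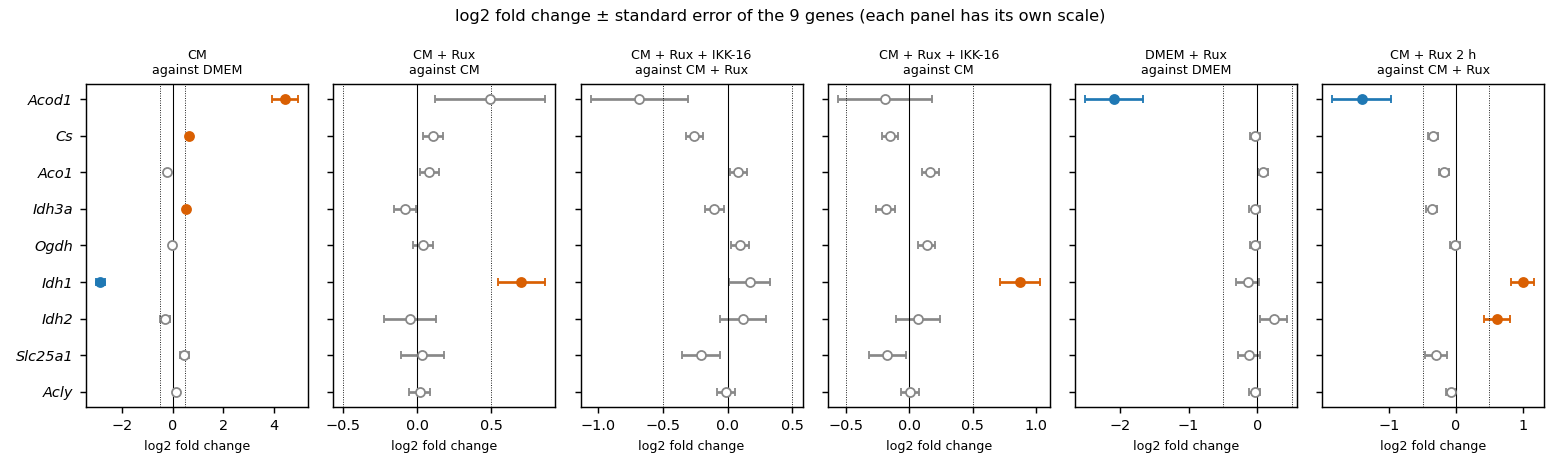
log2 fold change with its standard error for the 9 genes in 6 comparisons, where filled orange points are called higher, filled blue points called lower and open grey points not called. Dotted lines mark log2 fold changes of -0.5 and 0.5, and each panel has its own scale. Idh1 is called in 4 panels and Acod1 in 3.

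In DMEM without CM, Acod1, alone of the 9 genes, was called lower with Rux. The call was lost when some single samples were left out, and the size of the change depended on DMEM replicate 1. Acod1 was at 32.6, 23.3 and 31.7 CPM in DMEM + Rux, below both DMEM samples (203 and 43.0 CPM). The log2 fold change was -2.09 (SE 0.42, adjusted p = 0.025 by edgeR). Without DMEM replicate 1 it was -0.57 and not called (adjusted p = 1 by edgeR), and without DMEM replicate 2 it was -2.81 (adjusted p = 5.0e-05 by edgeR). Leaving out DMEM + Rux replicate 1, 2 or 3 gave -2.17, -1.94 and -2.15, close to the value from all samples but not called (adjusted p = 0.082, 0.14 and 0.098 by edgeR). A model of the 2 groups alone gave -2.10 (adjusted p = 0.40 by edgeR). In this comparison 0.970% of all genes tested were called lower and 0% higher. For the count of 0 higher genes by edgeR, 181 genes had an unadjusted p under 0.05 and a positive log2 fold change, and DESeq2 called 0. Idh1 was at 321, 300.4 and 249 CPM with Rux in DMEM, overlapping DMEM, with a log2 fold change of -0.14 (interval -0.48 to 0.20).

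The difference between the Rux effects in CM and in DMEM was tested as an interaction. In the main model, which has no replicate block, edgeR called none of the 9 genes. Of all genes tested, 0.234% were called higher and 0.178% lower. At an unadjusted p under 0.05 there were 2 of the 9 genes, beside 9.08% of all genes tested. DESeq2 called 2 of the 9, beside 1.89% of all genes. For Acod1 the difference was 2.58 (SE 0.56, adjusted p = 0.061 by edgeR), and with the replicate block it was 2.47 and was called (adjusted p = 0.027 by edgeR). Without DMEM replicate 1 it was 1.06 (adjusted p = 0.38 by edgeR), and without DMEM replicate 2 it was 3.29 and was called (adjusted p = 4.6e-04 by edgeR). For Idh1 it was 0.84 (SE 0.23, adjusted p = 0.14 by edgeR), and 0.73 with the replicate block, which called it (adjusted p = 0.0030 by edgeR). Over all genes the block gave 444 calls against 51 without it. Among the markers, Mertk of macrophages was called lower in the interaction (-1.95, adjusted p = 0.033 by edgeR), and its part in the results was not tested.

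The samples of CM + Rux labelled 2 h differed from those labelled 4 h in 3 of the 9 genes, with 2 higher and 1 lower, against 12.6% and 10.7% of all genes tested. Acod1 was at 1358 and 1448 CPM in the 2 h samples, below every 4 h sample. The log2 fold change was -1.41 (SE 0.44, adjusted p = 0.021 by edgeR), a 2.66-fold lower level. It stayed above DMEM, and without 2 h replicate 2 or 3 the log2 fold change was -1.37 or -1.46, of similar size but not called (adjusted p = 0.11 and 0.094 by edgeR).

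Idh1 was at 163 and 125 CPM in the 2 h samples, above every 4 h sample of CM + Rux and below every DMEM sample. The log2 fold change against 4 h was 0.999 (SE 0.17, adjusted p = 5.2e-04 by edgeR). Idh2 was at 31.8 and 41.0 CPM against 19.7, 26.0 and 25.9 CPM at 4 h, with a log2 fold change of 0.61 (SE 0.20, adjusted p = 0.025 by edgeR), which fell below the fold threshold with the replicate block (0.48). It was also lost without the 2 h replicate 3 (0.41, adjusted p = 0.23 by edgeR) or the 4 h replicate 1 (0.48, adjusted p = 0.091 by edgeR).

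Cs (227 and 231 CPM) and Idh3a (33.3 and 30.2 CPM) in the 2 h samples lay below every 4 h sample, with log2 fold changes of -0.35 and -0.36 that were under the fold threshold. Their adjusted p-values by edgeR were 0.0021 and 0.0041. Among the markers, Zbtb46 (log2 fold change 2.41) and Mertk (1.25) were called higher in the 2 h samples. Of the other dendritic cell markers, none of which passed the filter on low counts, Flt3, Xcr1 and Clec9a had lower means at 2 h than at 4 h and Siglech a higher one (0.481 against 0.178 CPM). Their part in the results was not tested.

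Across the 6 groups the order of levels differed between genes. Acod1 ran from CM + Rux (3728 ± 624 CPM, SD, n = 3) through CM (2653 ± 660.0, n = 3), CM + Rux + IKK-16 (2322 ± 318, n = 3), CM + Rux 2 h (1403 ± 64.0, n = 2) and DMEM (123 ± 113, n = 2) to DMEM + Rux (29.2 ± 5.13, n = 3). Neighbours from CM + Rux to CM + Rux + IKK-16 overlapped, and from there down none did. Idh1 ran nearly the other way, from DMEM (319.9 ± 38.0 CPM) and DMEM + Rux (290.3 ± 36.8), which overlapped, to CM + Rux 2 h (144 ± 26.5), CM + Rux + IKK-16 (81.1 ± 15.7) and CM + Rux (72.1 ± 10.6), of which the last 2 overlapped, and to CM (44.4 ± 5.14). Ogdh, Slc25a1 and Acly overlapped at every step of their order, and the highest group mean was 1.12-fold the lowest for Ogdh and Acly. The ratio of highest to lowest group mean was 128 for Acod1, 7.21 for Idh1, 1.71 for Cs, 1.53 for Slc25a1 and Idh2, 1.47 for Idh3a and 1.33 for Aco1.

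Levels of the 9 genes were compared with each other per kilobase of merged exon. In CM, Acod1 was at 1011 ± 252 CPM per kb (SD, n = 3), followed by Cs at 46.9 ± 2.55, Slc25a1 at 40.6 ± 5.65, Ogdh at 33.3 ± 0.953 and Acly at 31.0 ± 1.80. Idh1 was at 16.02 ± 1.85, Aco1 at 12.1 ± 0.177, Idh2 at 9.49 ± 1.497 and Idh3a at 8.56 ± 0.360 CPM per kb. In DMEM it was Idh1 that had the highest mean, 115 ± 13.7 CPM per kb (n = 2), above Acod1 at 47.0 ± 43.3, Ogdh at 33.6 ± 0.815 and Cs at 30.2 ± 0.3004. The Acod1 mean there is of 2 values far apart, 203 CPM in DMEM replicate 1 and 43.0 CPM in replicate 2. Its place above Ogdh and Cs rests on DMEM replicate 1. In DMEM + Rux, Acod1 at 11.1 ± 1.95 CPM per kb lay below Cs, Ogdh, Acly, Slc25a1, Idh1, Aco1 and Idh2.

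The 5 genes whose values over the 16 samples were closest to those of Acod1, by the root mean square difference of centred log2 (CPM + 0.1), were Cxcl2, Il1b, Adora2a, Bcl2a1a and Pmepa1. Cxcl2 encodes a neutrophil-attracting chemokine and was closest, with a difference of 0.393, followed by Il1b, which encodes the inflammatory cytokine IL-1β, with 0.525. Adora2a, an adenosine receptor, had 0.548, Bcl2a1a, a survival gene of the BCL2 family, 0.578 and Pmepa1 0.686. Bcl2a1a has near-identical copies in the genome, so its counts are uncertain. All 5 had higher values in DMEM replicate 1 than in DMEM replicate 2, a pattern of Acod1 that entered their choice, with Cxcl2 at 49.8 against 17.1 CPM and Il1b at 182 against 62.0 CPM. Among the 9 genes themselves, Ogdh and Acly had the most similar values (0.123), followed by Cs and Idh3a (0.140), and Acod1 and Idh1 the least similar (3.74).

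**Figure D4:**
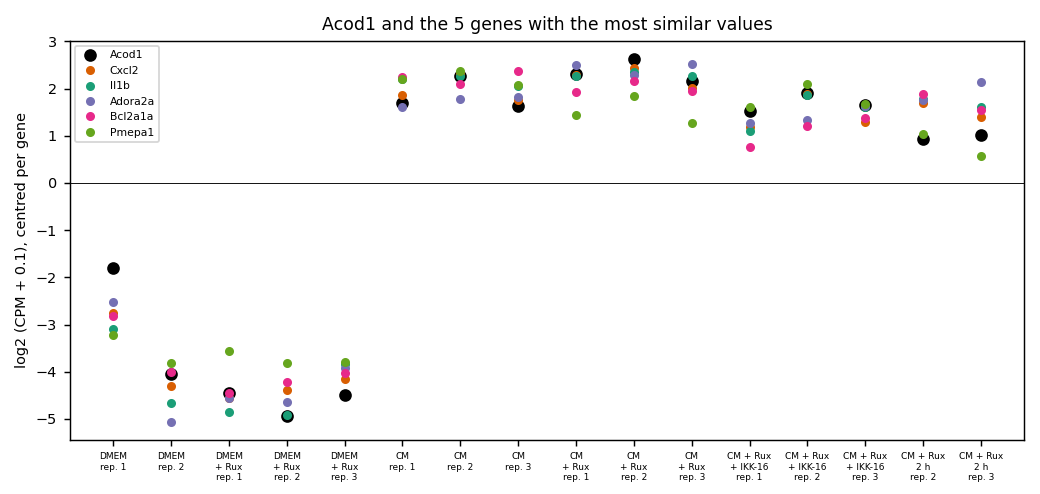
Centred log2 (CPM + 0.1) of Acod1 and the 5 genes closest to it in the 16 samples, ordered by group on the x axis. All 6 genes lie above 0 in every sample with CM and below 0 in every sample without it, and each is higher in DMEM replicate 1 than in DMEM replicate 2, samples that were used to choose the 5 genes.

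The surrounding pathway was described with 5 further lists, of which 45 genes in all were tested. Pdk4, Slc13a5, Sucnr1, Oxgr1 and Acss3 did not pass the filter on low counts. In CM against DMEM 2 of them (4.44%) were called higher and 11 (24.4%) lower, beside 20.9% and 24.1% of all genes tested. Of 13 genes for pyruvate entry tested, 1 was higher, Pdk1 (log2 fold change 0.70, SE 0.14), a kinase that inhibits pyruvate dehydrogenase, and 4 were lower. The lower genes were Pdk2 (-1.67, SE 0.23), another such kinase, Pdpr (-1.63, SE 0.18) and Pdp1 (-1.19, SE 0.16), a regulator and a catalytic subunit of the phosphatase that reactivates pyruvate dehydrogenase, and Pcx (-1.30, SE 0.19), pyruvate carboxylase. Pdk1 rose from 14.4 ± 3.13 CPM in DMEM (SD, n = 2) to 23.3 ± 1.54 in CM (n = 3), and Pdk2 fell from 14.5 ± 0.00347 to 4.57 ± 0.476 CPM.

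Of the 15 other citrate cycle enzymes tested, Mdh2, the mitochondrial malate dehydrogenase, was higher (0.81, SE 0.085, from 105 ± 1.17 to 184 ± 13.6 CPM) and Suclg2, the GTP-forming subunit of succinyl-CoA ligase, was lower (-1.08, SE 0.12, from 23.7 ± 1.102 to 11.1 ± 0.613 CPM). The subunits of succinate dehydrogenase, the enzyme that itaconate inhibits, were not called, and Sdha had -0.43 (adjusted p = 2.2e-05 by edgeR), below the fold threshold, but -0.74 and a call with scaling by total counts. Of 9 carriers and genes of cytosolic citrate use, 0 were higher and 3 lower. These were Acss2, which makes acetyl-CoA from acetate (-2.36, SE 0.22, from 18.3 ± 2.04 to 3.49 ± 1.04 CPM), Me1, the NADPH-forming malic enzyme (-0.92, SE 0.27), and Slc25a13, an aspartate and glutamate carrier (-0.50, SE 0.096).

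Of 6 genes of glutamine and aspartate entry, 0 were higher and 2 lower. Got1, the cytosolic aspartate aminotransferase, was at 76.3 ± 14.9 CPM in DMEM and 27.0 ± 6.78 in CM (-1.49, SE 0.19), and Gpt2, the mitochondrial alanine aminotransferase, changed by -1.28 (SE 0.26). Of 2 tested genes of itaconate and succinate handling, Aldh5a1, succinate semialdehyde dehydrogenase, was lower (-0.98, SE 0.37, adjusted p = 0.035 by edgeR) at 0.791 ± 0.243 CPM in CM. The median log2 fold changes were 0.031 for pyruvate entry, -0.057 for the other cycle enzymes, -0.20 for carriers, -0.74 for itaconate handling and -0.19 for glutamine entry, beside -0.0050 for all genes tested. With scaling by total counts Pdk1 (0.39) and Mdh2 (0.50) were no longer called, and over the 5 lists 0 genes were called higher and 20 (44.4%) lower, where 12.4% of all genes tested were called higher and 37.2% lower. These were 4 for pyruvate entry, 6 for the other cycle enzymes, 5 for carriers, 2 for itaconate handling and 3 for glutamine entry. No called gene of these lists changed sign under either other scaling.

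**Figure D5:**
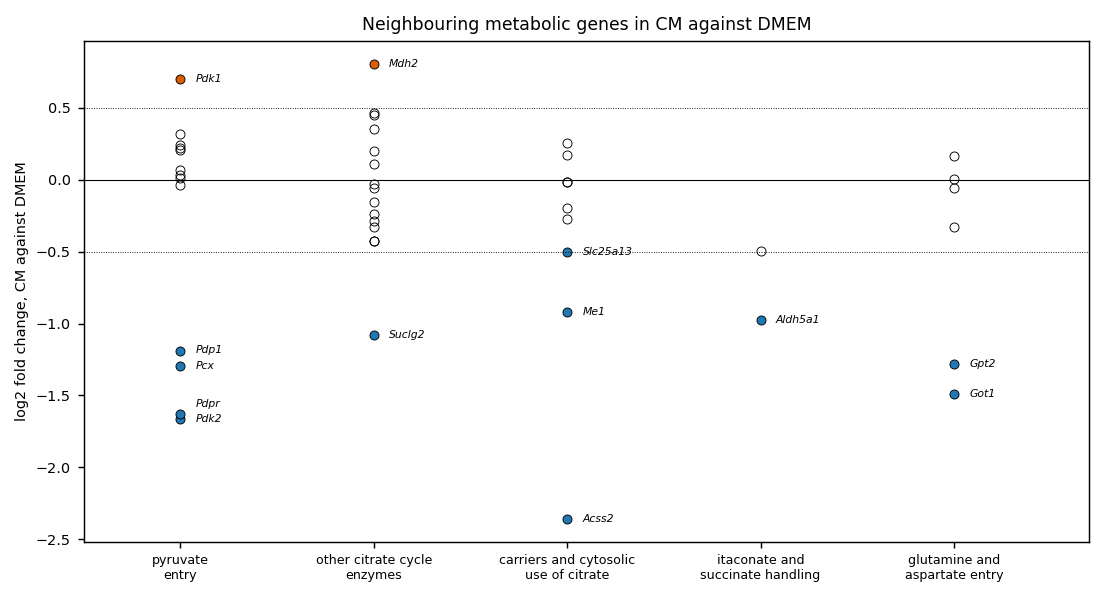
log2 fold change in CM against DMEM of the tested genes of 5 further pathway lists, with 1 point a gene. Orange points are called higher, blue points lower and open points not called, and dotted lines mark -0.5 and 0.5. Acss2 at -2.36 is the lowest point, and Pdk1 and Mdh2 are the only genes called higher.

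In CM + Rux against CM, DMEM + Rux against DMEM and the interaction, edgeR called 0 genes of the 5 lists, where 6, 1 and 4 of them had an unadjusted p under 0.05. These are 13.3%, 2.22% and 8.89% of the 45, beside 15.3%, 5.20% and 9.08% of all genes tested. DESeq2 called 1 in the first of these comparisons, Me1 (log2 fold change 0.76), or 2.22% beside 4.41% of all genes, and 0 in the others. Of the 45 genes, 2 (4.44%) were called higher with IKK-16 added to CM + Rux and 4 (8.89%) in the comparison with CM, with 0 lower by edgeR in both. Beside these stand 4.07% and 6.60% of all genes tested called higher and 3.66% and 6.13% called lower. In either direction, 9 and 10 of the 45 genes (20% and 22.2%) had an unadjusted p under 0.05. Of all genes tested, 28.8% and 35.6% did. DESeq2 called 3 and 5 of the 45 (6.67% and 11.1%), beside 8.68% and 13.4% of all genes tested. IKK-16 added to CM + Rux raised Got1 by 0.96 on the log2 scale (SE 0.17, adjusted p = 0.0026 by edgeR), from 30.5 ± 5.85 to 59.5 ± 7.53 CPM, and Pdp1 by 0.62 (SE 0.14). Against CM, the samples with IKK-16 had higher Got1 (1.13), Pdk2 (0.76), Pdp1 (0.65) and Pdpr (0.63).

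At 2 h against 4 h of CM + Rux, 6 of the 45 genes (13.3%) were called higher and 3 (6.67%) lower, beside 12.6% and 10.7% of all genes tested. Acss2 was at 14.0 ± 0.728 CPM at 2 h (n = 2) and 4.15 ± 1.02 at 4 h (n = 3), a log2 difference of 1.73, and Suclg2 (1.09), Got1 (1.12), Clybl (1.13), a citramalyl-CoA lyase that acts in itaconate breakdown, Pcx (0.59) and Pdp1 (0.53) were also higher. Pdk1 (-1.14), Pdp2 (-0.82) and Fasn (-0.54), fatty acid synthase, were lower. Clybl was at 2.02 ± 0.281 CPM at 2 h and 0.910 ± 0.0405 at 4 h, close to the limit of the filter. With scaling by total counts Pdp1 (0.46) and Pcx (0.51) were not called.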

How the data were processed

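RNA of 16 BMDM samples in 6 groups was analysed, with condition and replicate number taken from the labels. The authors trimmed reads with Trimmomatic 0.33, aligned them to GRCm38 with HISAT2 2.1.0 and counted fragments per gene with featureCounts 1.6.2 on the stranded setting. The deposited table holds raw counts of 55487 genes without normalization. The paper's annotation (Ensembl release 100) was not used here: symbols, positions and exon lengths came from GENCODE M21, which gave symbols for 55141 genes, and the remaining genes took up to 0.0459% of the counts.

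The filter asked for more than 1 CPM in 2 or more samples (12372 genes). Library sizes were adjusted with RLE factors (relative log expression), and edgeR 4.0.16 in R 4.3.3 gave quasi-likelihood tests in 1 model of the 6 groups without a replicate block. Genes were called at an adjusted p under 0.05 (Benjamini-Hochberg over all genes tested) and a log2 fold change beyond 0.5. Standard errors were derived from the fold change and its F statistic. There were 7 comparisons. At these depths 3 counts correspond to 0.0670 to 0.175 CPM, and no member came near this limit. The counts cover fragments without molecular identifiers, and pairs of replicates differed by more than sampling noise (chi-square per degree of freedom 14.2 to 54.4). The procedure was also run on simulated counts in which a small set of genes was changed in CM against DMEM, as many raised as lowered. This did not test the scaling where many genes differ, as in the real comparison.

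Whether equal replicate numbers pair the samples was checked from the correlation across genes of their deviations from the group means. It was 0.60 to 0.86 for every same-numbered pair of CM, CM + Rux and CM + Rux + IKK-16, so the numbers were taken to pair these samples. The main tests did not use this pairing. It entered the tests only as the replicate block among the alternatives, which gave more calls over all genes. It was 0.23 to 0.55 for the pairs with DMEM or with the 2 h samples, of which there are 2 a comparison.

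The 9 genes, the pathway lists and the markers were chosen with earlier results of these data known. The text names all 9 genes, of each other list up to 2 called genes with the largest change in each direction, and the 5 genes closest to Acod1. Outside this rule, Pcx, Pdp1, Slc25a13, Pdpr, Sdha and Me1 (by DESeq2) were named in some comparisons after their values were seen. So were marker genes, both called and not called. Alternatives were TMM, total counts alone, no filter, filterByExpr, the replicate block, DESeq2 1.42.0, models of only the groups compared, and leaving out each sample. Copies were searched with blastn 2.17.0.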

Additional observations from a re-analysis of the deposited data

Results flagged for a closer look

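Acod1, Cs and Ogdh moved in opposite directions with Rux in CM and in DMEM in every pair of samples with the same replicate number, as did 12.5% of all genes tested. For Acod1 the ratio of CM + Rux to CM was 1.53, 1.30 and 1.44 in replicates 1 to 3, and that of DMEM + Rux to DMEM was 0.160 and 0.541 in replicates 1 and 2. The difference between the effects was 2.58 on the log2 scale (adjusted p = 0.061 by edgeR) and was not called. The first DMEM ratio rests on DMEM replicate 1, without which the difference was 1.06.

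For Cs the ratios were 1.06, 1.08 and 1.09 in CM and 0.977 and 0.988 in DMEM, with a difference of 0.14 (adjusted p = 0.83 by edgeR). For Ogdh they were 1.02, 1.04 and 1.03 in CM and 0.958 and 0.932 in DMEM, with a difference of 0.071 (adjusted p = 0.97 by edgeR). Neither difference passed the interaction test.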

How the results depend on the processing

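Values of single genes were counted over all alternatives only for some changes. These were all changes of Acod1, those with an unadjusted p under 0.05 by edgeR and those called under any setting. The remaining changes, many of them near 0, were left out, so their turns of sign are not in the count. Of the 321 values counted, 290 kept their direction and their side of the threshold, 17 lost the call, 13 gained one and 1 turned its sign. That value was Acod1 in CM + Rux + IKK-16 against CM, which was 0.030 without CM replicate 2 and ranged from -0.31 to 0.030 when each sample was left out. In CM + Rux against CM, 412 genes were called, 685 without a filter, 745 with the replicate block and between 243 (without CM + Rux replicate 1) and 486 when a sample was left out, with 258 without CM replicate 2, and 0 to 1 of the 9 genes were called when a sample was left out. For the interaction, 51 genes were called, 234 with DESeq2, 349 without a filter, 444 with the replicate block, 90 with total counts alone and between 17 (without DMEM replicate 1) and 114 (without DMEM replicate 2) when a sample was left out. Of the 9 genes the interaction called 0, but 2 with DESeq2, without a filter and with the replicate block, 1 with total counts alone, and 0 to 1 when a sample was left out. In CM + Rux + IKK-16 against CM + Rux a model of only the groups compared called 1 of the 9 genes in place of 0. In DMEM + Rux against DMEM that model called 0 in place of 1, as did leaving out samples (0 to 1). Leaving out samples gave 1 to 3 calls of the 9 genes in the comparison of 2 h with 4 h. The replicate block changed the calls of Slc25a1, Idh2, Acod1 and Idh1 given in the report, and no other call of the 9 genes. The causes of these changes were not tested. DMEM and the 2 h group hold 2 samples each, which limits every comparison that uses them. Where 1 sample of such a group was left out, the lone sample was assumed to vary like the other groups.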
